A study of Sus scrofa with 12 samples.

Results

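The genes described here encode the machinery of oxidative phosphorylation, read in the ileal mucosa of 12 pigs and grouped by the complex that their protein belongs to. Members were found by symbol in the annotation of the array. Symbols that start with NDUF followed by A, B, C, S or V and a digit were placed in complex I, SDHA to SDHD in complex II, symbols that start with UQCR and CYC1 in complex III, COX4 to COX8 in complex IV and symbols that start with ATP5 in complex V. This gave 54 of 13755 genes with a symbol, on 88 of 47845 probe sets. Complex I held 26 genes, complex II 3, complex III 2, complex IV 7 and complex V 16. For every gene the brightest probe set by mean log2 value over the 12 arrays was taken, so the measured values chose between the probe sets of the 20 genes that have more than 1. Of the 54, 52 lay above a filter on dim probe sets (mean log2 value of 2.67), and ATP5H (mean 1.51) and ATP5I (mean 1.90), both membrane or stalk subunits of complex V, lay below it. They are described by their values alone.

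The study set 6 pigs of high feed efficiency, the weight gained for the feed eaten, against 6 of low. Each group held 3 males and 3 females, and all were 140 days old. RNA of each pig was hybridised to its own Affymetrix Snowball array, and the deposited values are on a log2 scale, where a difference of 1 is a doubling of the signal. The pigs are called high pig 1 to 6 and low pig 1 to 6 in the order of their records; pigs 1 to 3 of each group are males and pigs 4 to 6 females. Breed, diet and the way in which feed efficiency was measured are not given in the labels used here, and no treatment beyond the grouping is named.

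Oxidative phosphorylation takes place in the inner membrane of the mitochondrion. Complex I takes electrons from NADH and complex II from succinate, complex III passes them on to cytochrome c, and complex IV hands them to oxygen. The energy released pumps protons across the membrane, and complex V, the ATP synthase, lets them flow back to make ATP. In the small intestine, enterocytes that absorb nutrients rely on this ATP to drive ion pumps. Some core subunits of complexes I, III, IV and V are encoded by mitochondrial DNA: none of the 26 symbol spellings searched for such genes had a probe set, so the values below are all of nuclear genes. The symbol rule reaches some genes that are no subunits, namely ATP5S, ATP5SL and NDUFA4L2, and it places NDUFA4 in complex I, although later work in human cells assigns its protein to complex IV.

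The array of high pig 1 stood apart over the probe sets above the filter. It had a median correlation of 0.899 with the other arrays, against 0.930 to 0.962 for the other 11, and its hybridization controls averaged 11.02 against 10.26 to 10.62. Of 13 ileal enterocyte markers listed, 11 lay above the filter, and among them FABP6, the ileal bile acid binding protein, lay between 11.70 and 13.09 in every pig. The mean marker level of enterocytes, each marker first centred on its mean over the pigs, was -1.84 in high pig 1 and from -0.56 to 0.86 in the other 11. High pig 1 was also the lowest for markers of goblet cells (-1.17), crypt stem cells (-0.74), smooth muscle (-0.54) and neurons and glia (-0.22). For markers of B cells, plasma cells, T cells and striated muscle another pig was the lowest. In whole mucosa, fewer cells of a type and less RNA per cell cannot be told apart. Beside the feed efficiency differences of the genes described one by one, the value without high pig 1 is given.

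Over all 52 genes above the filter, the pigs differed more within the feed efficiency groups than between them. For each pig the log2 values of the members were centred on each gene's mean over the 12 pigs and averaged. This member score was -0.53 in high pig 1, -0.07 in high pig 2, -0.07 in high pig 3, 0.28 in high pig 4, 0.11 in high pig 5 and 0.11 in high pig 6. It was 0.21 in low pig 1, -0.19 in low pig 2, 0.03 in low pig 3, 0.07 in low pig 4, 0.02 in low pig 5 and 0.02 in low pig 6. The lowest and the highest pig were thus both of high feed efficiency, and the low pigs lay inside their range. The means were -0.03 ± 0.28 in the high and 0.03 ± 0.13 in the low pigs (SD, n = 6 each). High pig 1 held the lowest value of the 12 for 30 of 52 members (57.7%), where it held the lowest value for 22.6% of all 12164 genes above the filter. High pig 4 held the highest value for 22 of 52 members, against 8.57% of all genes.

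**Figure D1:**
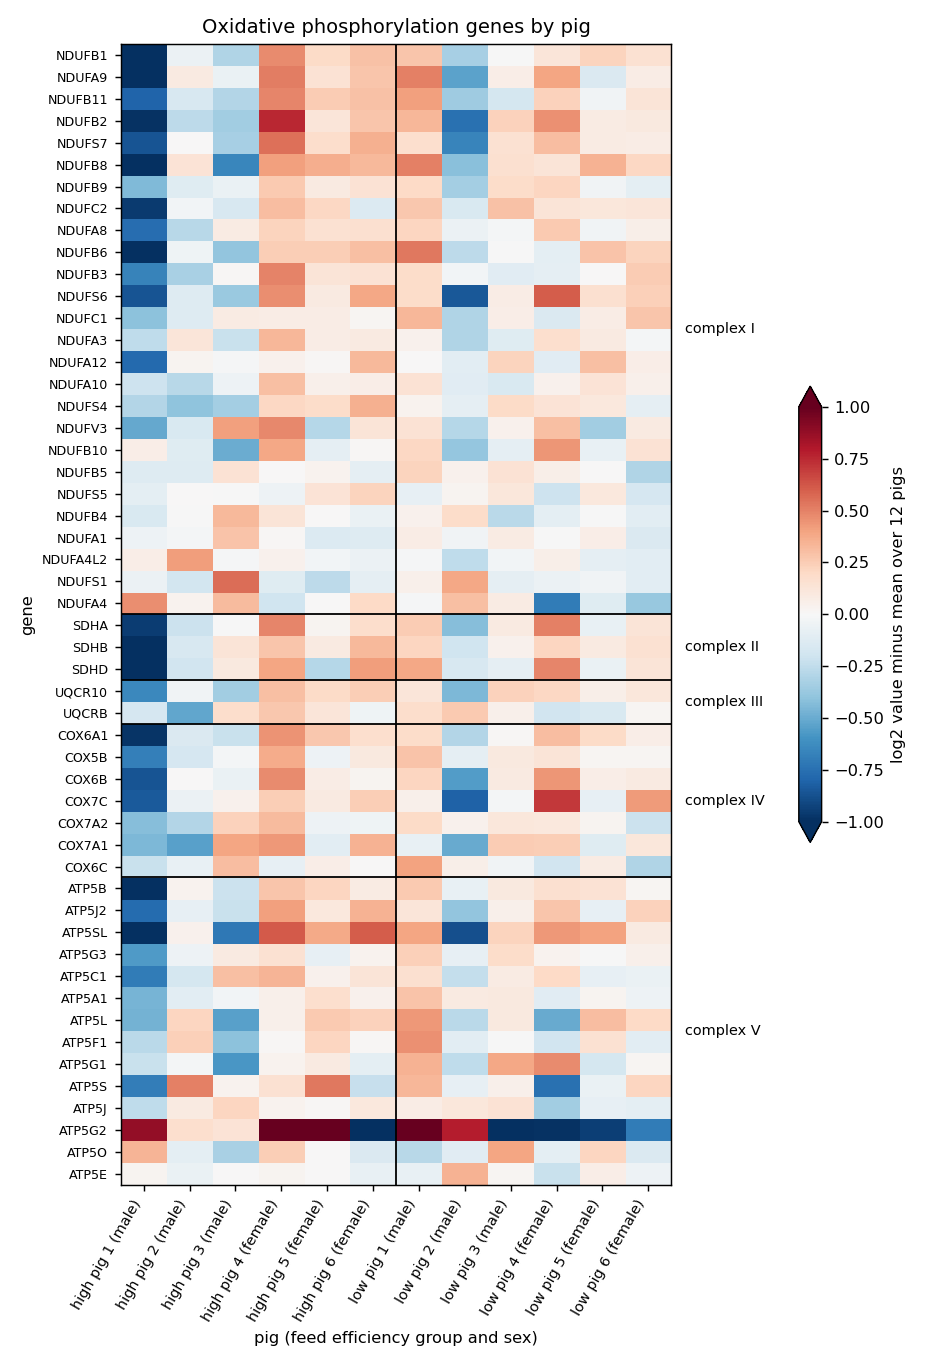
Log2 values of the 52 oxidative phosphorylation genes above the filter (rows, by complex) in each of the 12 pigs (columns, by feed efficiency group and sex), each gene centred on its mean over the pigs, with colours ending at -1 and 1. The column of high pig 1 is the lowest for 30 of 52 genes, and ATP5G2 varies most, from 1.89 to 5.31.

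The 5 complexes followed the pigs to different degrees. In high pig 1 the score of complex II was -1.08, that of complex IV -0.64, that of complex I -0.52, and those of complexes III and V were both -0.41. Relative to the mean of the other complexes' scores, complex II, succinate dehydrogenase, stood at -0.58 in this pig and at -0.19 to 0.34 in the other 11. Low pig 4 stood at the other end, with complex II at 0.34 and complex V at -0.31 relative to the rest. Relative to the rest, complex I stayed between -0.054 and 0.11 in all 12 pigs. Complex II had the widest range of scores over pigs, 1.48, and complex V the narrowest, 0.68. Complexes II and III rest on 3 and 2 genes, so single genes weigh more in them. The scores of complexes I and V also average in NDUFA4L2, ATP5S and ATP5SL, which are no subunits, and dim genes such as NDUFA4 (mean 2.94) and ATP5G2 (mean 3.83). All 3 genes of complex II are brighter, with means of 7.99 to 9.57. Single genes of other complexes varied in high pig 1, from NDUFB8 at 7.85 (mean 9.36) to ATP5E at 8.16 (mean 8.13).

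**Figure D2:**
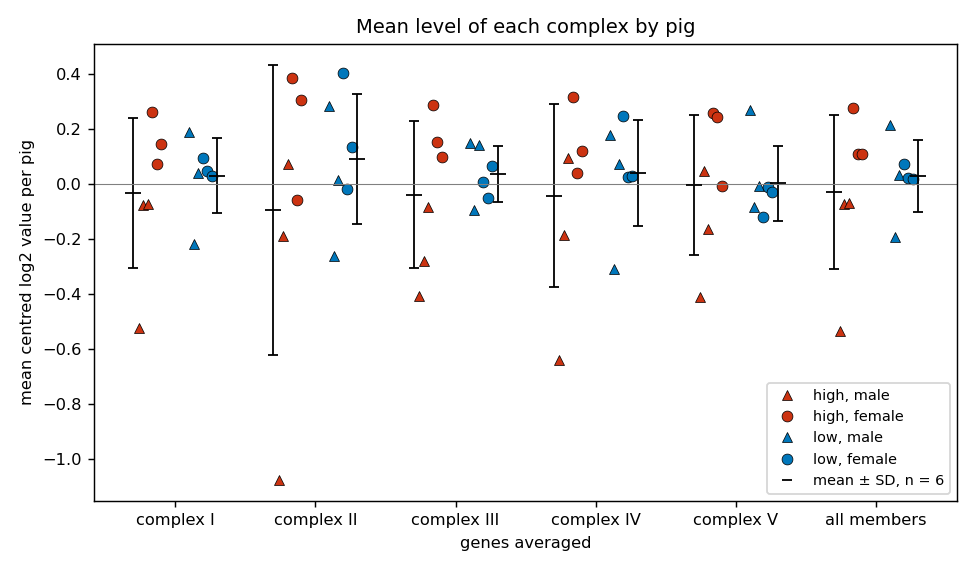
Mean centred log2 value of the genes of each complex in each pig (points; triangles males, circles females), with mean and SD of the 6 pigs of each feed efficiency group (bars). High pig 1 is the lowest point of every complex, at -1.08 for complex II and -0.41 for complexes III and V, and the 2 groups overlap throughout.

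Whether the level of these genes differs with feed efficiency was asked gene by gene, in a linear model with terms for feed efficiency and sex fitted with limma to all probe sets above the filter. None of the 52 members passed an adjusted p of 0.05, and their adjusted p was 0.999 or higher (Benjamini-Hochberg over all 33405 probe sets). The background was the same, with 0.0% of 12164 genes called. None of the 52 had an unadjusted p under 0.05 either, where 2.19% of all genes did. The ranges of both groups overlapped for all 52, and 0.0575% of all genes did not overlap. Below, differences are high minus low on the log2 scale with their standard error from this fit, n = 6 pigs per group.

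In sign, 41 of the 52 were lower in the high pigs (78.8%; 52.5% of all genes), with a median difference of -0.08 (-0.01 over all genes). The same description by complex gave 20 of 26 lower for complex I (median -0.07), 3 of 3 for complex II (-0.17), 2 of 2 for complex III (-0.07), 6 of 7 for complex IV (-0.09) and 10 of 14 for complex V (-0.07). Without high pig 1, 27 of the 52 were lower (51.9%; 50.7% of all genes) and the median was -0.0055. The medians by complex were then 0.0074, -0.01, -0.01, 0.02 and -0.02 in the same order. Leaving out any of the other pigs in turn gave 33 to 44 lower, the least without low pig 1, where the median was -0.02. The median standard error of a member was 0.16, and the 95% interval reached 0.34 to either side at the median. For 51 of 52 the interval lay within 1 log2 unit of 0, and ATP5G2 was the exception.

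**Figure D3:**
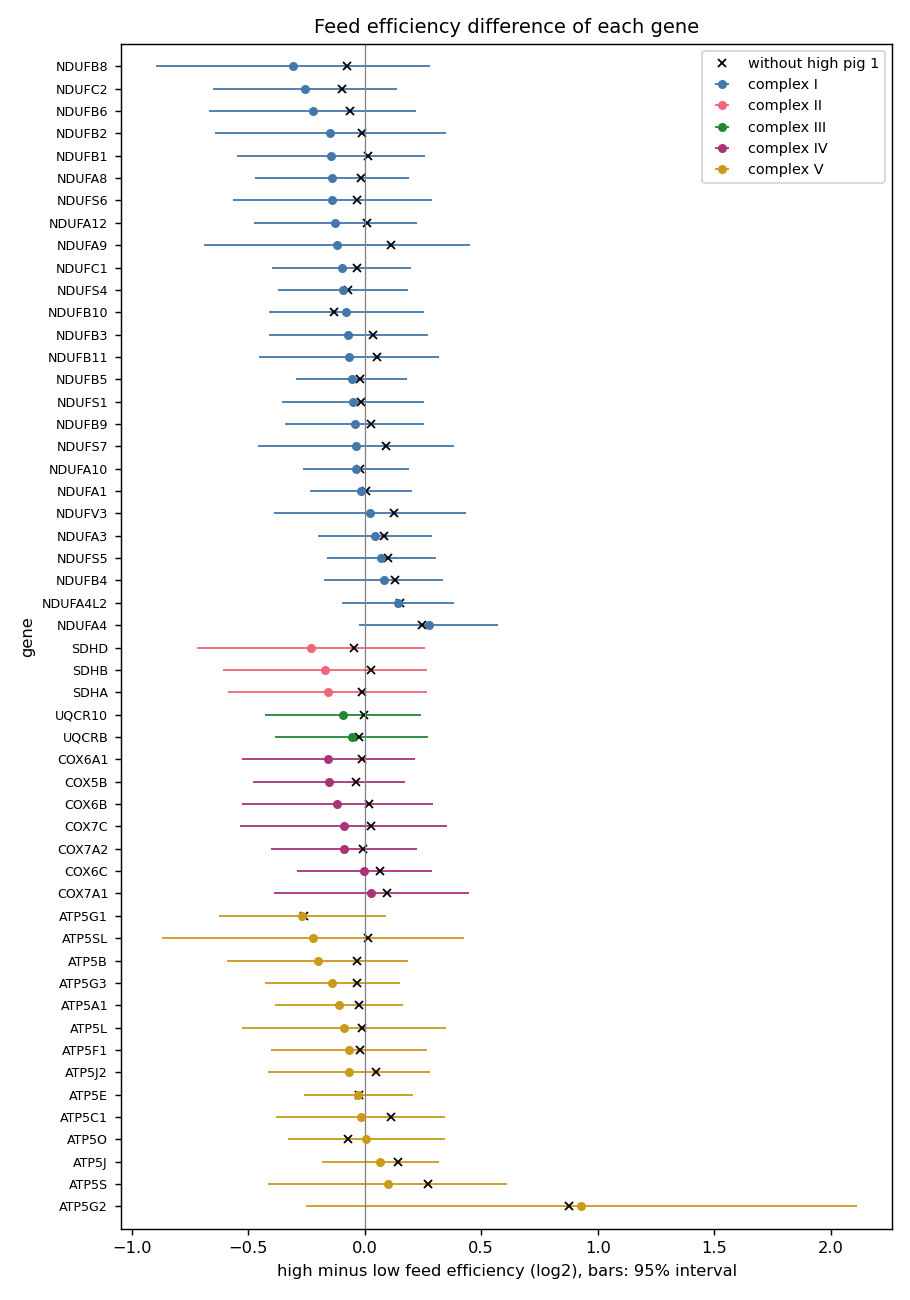
High minus low difference (log2) of each of the 52 genes, by complex, with its 95% interval from the limma fit to 12 pigs, and the difference without high pig 1 (crosses). All 52 intervals include 0, and most crosses of genes with a negative difference lie nearer to 0.

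The core of complex I, where NADH is oxidised and electrons reach ubiquinone, was represented by NDUFS1 and NDUFS7. NDUFS1 carries iron-sulfur clusters of the NADH arm: its values were 7.02 to 7.84 (median 7.18) in high and 7.18 to 7.67 (median 7.23) in low pigs, a difference of -0.050 ± 0.14. NDUFS7 holds the last cluster before ubiquinone, and differed by -0.038 ± 0.19, with high pigs at 7.71 to 9.13 (median 8.67) and low pigs at 7.92 to 8.89 (median 8.70). Both core genes thus differed by less than their standard error. Their differences were -0.017 and 0.093 without high pig 1.

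The other 24 genes of complex I are accessory subunits and NDUFA4 and NDUFA4L2. Those of smallest p with a negative sign, NDUFC2, NDUFB8 and NDUFB6, are accessory subunits of the membrane arm. NDUFC2 lay at 7.60 to 8.88 (median 8.48) in high and 8.41 to 8.86 (median 8.69) in low pigs, a difference of -0.26 ± 0.18 that was -0.10 without high pig 1. NDUFB8 spanned 7.85 to 9.76 (median 9.59) in high and 8.94 to 9.86 (median 9.54) in low pigs and differed by -0.31 ± 0.27, or -0.074 without high pig 1. NDUFB6 differed by -0.22 ± 0.20, or -0.065 without high pig 1, with 6.55 to 7.87 (median 7.68) in high and 7.31 to 8.10 (median 7.68) in low pigs. In all of these, high pig 1 was the lowest of the 12 and the other 5 high pigs lay within or near the low range. Of the other 2 probe sets of NDUFB8, the one below the filter had the opposite sign.

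NDUFA4 ran the other way. Its values were 2.75 to 3.41 (median 3.06) in the high and 2.24 to 3.25 (median 2.88) in the low pigs, and the difference of 0.27 ± 0.14 had the smallest unadjusted p of any member, 0.0694 (limma adjusted p = 0.999). With a mean of 2.94 the probe set lies just above the filter, and its second probe set lies below it. NDUFA4L2, a paralogue that hypoxia induces in human cells, differed by 0.14 ± 0.11, with 4.65 to 5.13 (median 4.73) in high and 4.45 to 4.77 (median 4.65) in low pigs. High pig 2 alone, at 5.13, stood above the rest. The differences of NDUFA4 and NDUFA4L2 were 0.25 and 0.15 without high pig 1. Beside these genes and NDUFS4 and NDUFS6, which are described with the sexes, 17 accessory genes remained, with means of 4.61 to 8.69. Of the 17, 13 were lower in the high pigs, with differences from -0.15 (NDUFB2) to 0.081 (NDUFB4), and 10 had their lowest value in high pig 1.

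Complex II is the enzyme that also serves the citric acid cycle and has no subunit from mitochondrial DNA. SDHA, the flavoprotein that oxidises succinate, lay at 8.62 to 10.06 (median 9.58) in high and 9.14 to 10.08 (median 9.68) in low pigs, a difference of -0.16 ± 0.20 that was -0.011 without high pig 1. SDHB, the iron-sulfur subunit, was 8.10 in high pig 1 and 9.10 to 9.59 in the others of its group, against 9.06 to 9.48 (median 9.38) in low pigs. Its difference of -0.17 ± 0.20 was 0.027 without high pig 1. SDHD, a membrane anchor, differed by -0.23 ± 0.22 with 6.87 to 8.41 (median 7.94) in high and 7.83 to 8.48 (median 8.02) in low pigs, or -0.047 without high pig 1. All 3 were lower in high pig 1 than in any other pig. SDHA had 4 probe sets, all with a negative difference, and SDHB had 6, of which 5 were negative. Among the 20 members of any complex with more than 1 probe set, all probe sets shared a sign by feed efficiency for 10. Probe sets below the filter are counted there.

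Complex III was represented by 2 of its small subunits. UQCR10 lay at 8.48 to 9.43 (median 9.21) in high and 8.68 to 9.36 (median 9.25) in low pigs, a difference of -0.093 ± 0.15. UQCRB, which binds near a ubiquinone site, lay at 5.32 to 6.11 (median 5.88) and 5.65 to 6.11 (median 5.88) and differed by -0.057 ± 0.15. Both differed by less than their standard error, and without high pig 1 by -0.0017 and -0.026. Their lowest pigs were not the same: UQCR10 was lowest in high pig 1 (8.48) and UQCRB in high pig 2 (5.32).

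The 7 genes of complex IV all encode nuclear subunits that surround its catalytic core. COX5B, a subunit on the matrix side, lay at 6.90 to 7.95 (median 7.55) in high and 7.49 to 7.87 (median 7.64) in low pigs and differed by -0.15 ± 0.15. Its dimmer probe sets, with means of 4.19 and 1.82, had the opposite sign, at 0.10 and 0.11. COX6A1, the isoform of subunit 6a found outside heart and skeletal muscle, lay at 8.99 to 10.42 (median 9.99) and 9.69 to 10.28 (median 10.10) and differed by -0.16 ± 0.17. COX6B differed by -0.12 ± 0.19 and COX7C by -0.091 ± 0.20. These 4 had their lowest value in high pig 1, and without it the differences were -0.039, -0.0097, 0.016 and 0.025 in that order.

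Subunit 7a has a heart and muscle isoform, COX7A1, and a broadly expressed one, COX7A2. COX7A1 lay at 6.44 to 7.42 (median 7.10) in high and 6.48 to 7.23 (median 7.0) in low pigs, a difference of 0.028 ± 0.19, and COX7A2 at 9.17 to 9.91 (median 9.55) and 9.38 to 9.79 (median 9.67), a difference of -0.089 ± 0.14. Neither isoform differed by more than its standard error, and without high pig 1 the differences were 0.10 and -0.0093. The mean level of smooth muscle markers (7 of 8 above the filter) ran from -0.54 to 0.48 in high and from -0.23 to 0.39 in low pigs, and its part in the level of COX7A1 was not tested. COX6C, the remaining gene, differed by -0.0019 ± 0.13, or 0.064 without high pig 1. Its second probe set, with a mean of 9.24 beside 9.30, differed by -0.13.

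In complex V the catalytic F1 head was represented by ATP5A1 (alpha), ATP5B (beta), ATP5C1 (gamma) and ATP5E (epsilon). ATP5B, the subunit that carries the catalytic sites, lay at 10.45 to 11.73 (median 11.51) in high and 11.38 to 11.71 (median 11.57) in low pigs and differed by -0.20 ± 0.18, or -0.035 without high pig 1. ATP5A1 lay at 10.15 to 10.79 (median 10.63) and 10.51 to 10.90 (median 10.68) and differed by -0.11 ± 0.13. ATP5E lay at 8.06 to 8.16 (median 8.14) and 7.91 to 8.48 (median 8.12), a difference of -0.027 ± 0.11. ATP5C1 differed by -0.018 ± 0.17. All 4 head genes had a negative difference (median -0.07). When high pig 1 was left out, 3 of the 4 did (median -0.025), with -0.024 for ATP5A1, -0.026 for ATP5E and 0.11 for ATP5C1. Of the probe sets of ATP5E, 2 of 3 had the opposite sign to the one used.

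The peripheral stalk holds the head still against the turning rotor. Its genes ATP5F1, ATP5J and ATP5O differed by -0.069 ± 0.15, 0.067 ± 0.12 and 0.0067 ± 0.16, each less than its standard error, and by -0.020, 0.14 and -0.071 without high pig 1. ATP5F1 lay at 9.29 to 9.94 (median 9.72) in high and 9.52 to 10.16 (median 9.65) in low pigs. ATP5J lay at 9.28 to 9.74 (median 9.59) and 9.19 to 9.67 (median 9.53), and ATP5O at 3.09 to 3.76 (median 3.36) and 3.14 to 3.81 (median 3.31). ATP5H, also of the stalk and below the filter, was 1.40 to 1.90 (median 1.57) in high and 1.29 to 1.79 (median 1.37) in low pigs, and ATP5I of the membrane part 1.56 to 2.37 (median 1.75) and 1.33 to 2.58 (median 2.04). ATP5L, subunit g of the membrane part, differed by -0.088 ± 0.20, or -0.013 without high pig 1.

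The rotor ring of complex V is built from subunit c, for which ATP5G1, ATP5G2 and ATP5G3 encode the same mature protein. ATP5G2 had the widest range of the 3. It was 4.71, 4.0, 3.97, 5.07, 5.31 and 2.71 in high pigs 1 to 6, and 4.83, 4.61, 1.89, 2.84, 2.89 and 3.13 in low pigs 1 to 6. Both groups spread over more than 2 log2 units and overlapped, and the difference was 0.93 ± 0.54 (95% interval -0.25 to 2.11, limma adjusted p = 0.999), or 0.88 without high pig 1. The second probe set of ATP5G2, with a mean of 2.74, differed by 0.04. ATP5G1 lay at 5.56 to 6.23 (median 6.08) in high and 5.89 to 6.62 (median 6.33) in low pigs, a difference of -0.27 ± 0.17 that was -0.26 without high pig 1. ATP5G3 lay at 7.85 to 8.58 (median 8.42) and 8.34 to 8.66 (median 8.46) and differed by -0.14 ± 0.13, or -0.035 without high pig 1.

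Feed efficiency was also read within each sex, with 3 high and 3 low pigs. In males alone, 46 of 52 members were lower in the high pigs (88.5%; 54.0% of all genes), with a median of -0.28. In females alone, 9 of 52 were lower (17.3%; 48.8% of all genes), with a median of 0.10. In males the medians were -0.24, -0.42, -0.32, -0.23 and -0.28 for complexes I to V, and in females 0.09, 0.04, 0.17, 0.10 and 0.14. The difference between the sexes, high minus low in males minus that in females, was tested in a fit of the 4 group means. It passed the adjusted threshold for 0 of 52 members (0.0% of all genes), and 2 of 52 (3.85%) had an unadjusted p under 0.05, where 1.85% of all genes did. In sign, 48 of 52 were negative (92.3%; 54.3% of all genes), with a median of -0.39 against -0.03 over all genes. Without high pig 1, a male, 45 of 52 were negative with a median of -0.22, and 1 had an unadjusted p under 0.05 (1.92%; 1.71% of all genes). Leaving out each other pig in turn gave 43 to 49 negative and 1 to 9 members with an unadjusted p under 0.05, the most without low pig 2 (17.3% of members; 4.13% of all genes). The count was 7 without high pig 2 (13.5%; 5.25% of all genes) and 6 without high pig 3 (11.5%; 4.34% of all genes).

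NDUFS4 and ATP5A1 were the 2 members in question. For NDUFS4, an accessory subunit needed for a stable complex I, the high males were 6.01, 5.90 and 5.96 and the low males 6.33, 6.21 and 6.49. The high females were 6.51, 6.49 and 6.65 and the low females 6.44, 6.40 and 6.21. All high males lay below all low males, while all high females lay above all low females. The difference between the sexes was -0.59 ± 0.20 (unadjusted p = 0.015, limma adjusted p = 1.0). Without high pig 1 it was -0.61 (limma, unadjusted p = 0.0187). For ATP5A1 the difference between the sexes was -0.49 ± 0.22 (unadjusted p = 0.0492), with the high males at 10.15, 10.52 and 10.60 and the low males at 10.90, 10.71 and 10.72. Without high pig 1, the male at 10.15, that of ATP5A1 was -0.35 (limma, unadjusted p = 0.113). The high females of ATP5A1 were 10.67, 10.79 and 10.67 and the low females 10.51, 10.65 and 10.57. In ATP5A1 too, all high males lay below all low males and all high females above all low females. The share of all genes with this order was not counted. In the other complexes the members of smallest p were SDHB (-0.50 ± 0.39), UQCRB (-0.56 ± 0.27) and COX5B (-0.47 ± 0.28). Without high pig 1 these were -0.12, -0.56 and -0.27.

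**Figure D4:**
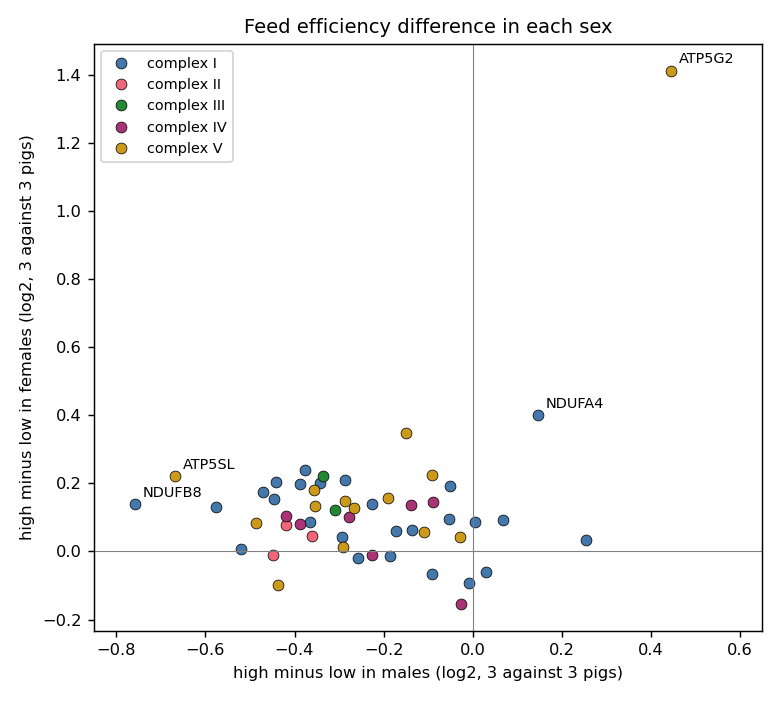
High minus low difference (log2) of each of the 52 genes in males (horizontal axis) and in females (vertical axis), 3 against 3 pigs each, coloured by complex. Of the 52 points, 46 lie left of 0 in males and 9 lie below 0 in females, and ATP5G2 lies apart at the upper right.

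Males and females were compared in the same fit, as male minus female with 6 pigs of each sex. None of the 52 passed the adjusted threshold (0.0% of all genes), and the smallest adjusted p among them was 0.127, of NDUFS6. Of all 33405 probe sets in the fit, 11 passed it, none of them a probe set that stands for one of the 12164 genes. An unadjusted p under 0.05 was reached by 13 of 52 (25.0%), where 20.3% of all genes reached it. Of the 13, 12 were lower in males (23.1%; 12.1% of all genes) and 1, NDUFA4, was higher (1.92%; 8.24% of all genes). By complex, the 13 held 8 of 26 genes of complex I (30.8%), 2 of 7 of IV (28.6%) and 2 of 14 of V (14.3%). They also held 0 of 3 genes of complex II and 1 of 2 of III. The share in complex I was thus close to that in complex IV. No member separated the sexes without overlap, which 2.43% of all genes did. In sign, 41 of 52 were lower in males (78.8%, against 55.7% of all genes), with a median of -0.21 (-0.03 over all genes). Without high pig 1, 35 of 52 were lower (67.3%, against 55.3% of all genes). By complex the medians over the 12 pigs were -0.24, -0.38, -0.19, -0.31 and -0.05 from I to V. Sex is partly tied to the pigs' identifiers: all 6 males and 2 females have identifiers from 301 to 310, and the other 4 females from 317 to 324. Whether the ranges stand for anything is not given in the labels used here. Within the range 301 to 310 the median was -0.34, and 6 members had an unadjusted p under 0.05 (11.5%; 16.6% of all genes). Without high pig 1 the median was -0.11 and the count 8 (15.4%; 16.3% of all genes). The count was 7 without low pig 2 (13.5%; 13.9% of all genes), 6 without high pig 4 (11.5%; 14.8% of all genes) and 21 without low pig 1 (40.4%; 22.4% of all genes). Among these shares of members, only that without low pig 1 lay above the share over all genes. Leaving out any pig not listed here also gave a share above that of all genes. Examples are 28.8% without low pig 4 (17.8% of all genes) and 19.2% without high pig 5 (17.4% of all genes).

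NDUFS6, a zinc-binding accessory subunit of complex I, lay at 7.65 to 8.69 (median 8.26) in males and 8.60 to 9.11 (median 8.82) in females, a difference of -0.65 ± 0.20. Males spread over a wider range than females and reached into it from below. NDUFS7 was 7.71 to 8.75 (median 8.41) in males and 8.65 to 9.13 (median 8.82) in females, a difference of -0.51 ± 0.19 (limma adjusted p = 0.186). All 3 of its probe sets were lower in males. Among the 20 members with more than 1 probe set, all probe sets shared a sign by sex for 7. NDUFA4 lay at 2.94 to 3.41 (median 3.14) in males and 2.24 to 3.14 (median 2.79) in females, a difference of 0.40 ± 0.14 (limma adjusted p = 0.161), and its second probe set had the opposite sign. The males of NDUFA4 lay in the upper part of the range and overlapped the females. Without high pig 1, a male, the differences by sex of NDUFS6, NDUFS7 and NDUFA4 were -0.55, -0.38 and 0.37.

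In complex II all genes had lower means in males. The difference was -0.42 ± 0.20 for SDHA, -0.38 ± 0.20 for SDHB and -0.36 ± 0.22 for SDHD, and none reached an unadjusted p of 0.05. Without high pig 1, a male, these differences were -0.27, -0.18 and -0.18. In complex III UQCR10 differed by -0.37 ± 0.15 and UQCRB by -0.0053 ± 0.15. In complex IV COX6A1 lay at 8.99 to 10.16 (median 9.79) in males and 10.05 to 10.42 (median 10.21) in females, a difference of -0.48 ± 0.17. COX7C lay at 7.11 to 8.0 (median 7.90) and 7.86 to 8.65 (median 8.19), a difference of -0.54 ± 0.20, and COX6B differed by -0.39 ± 0.19. Each of these overlapped between the sexes. In complex V ATP5J2, subunit f of the membrane part, lay at 6.57 to 7.46 (median 7.18) in males and 7.26 to 7.75 (median 7.59) in females, a difference of -0.43 ± 0.16, and ATP5B differed by -0.30 ± 0.18. Without high pig 1 the differences by sex were -0.28 for UQCR10, 0.025 for UQCRB and -0.33 for COX6A1. They were then -0.43 for COX7C, -0.26 for COX6B, -0.32 for ATP5J2 and -0.13 for ATP5B.

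ATP5SL had the widest difference by sex among the members. Despite its symbol, in human cells its product takes part in the assembly of the membrane arm of complex I. It was 6.86, 8.48 and 7.73 in the high males, 8.84, 7.56 and 8.67 in the low males, and 8.54 to 9.06 in the 6 females. The high males and low pig 2 lay below every female, high pig 2 only just, and low pigs 1 and 3 lay within the female range. The difference was -0.84 ± 0.30 (limma adjusted p = 0.167), or -0.61 without high pig 1. By feed efficiency ATP5SL differed by -0.22 ± 0.30, and ATP5S, which is also no subunit of the synthase, by 0.10 ± 0.24. These feed efficiency differences were 0.012 and 0.27 without high pig 1.

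How alike the members varied from pig to pig was described by complex. Over the 12 pigs the median pairwise Pearson correlation was 0.92 for the 3 pairs within complex II, 0.65 within complex IV (21 pairs), 0.41 within complex I (325 pairs), 0.30 within complex V (91 pairs) and 0.03 for the single pair of complex III. Pairs of members from different complexes had a median of 0.44 (885 pairs), above that within complexes I and V. All pairs of genes above the filter had a median of 0.0048. These are descriptions over 12 arrays that share high pig 1 and the same normalization. Without high pig 1 the medians were 0.81 within complex II, 0.48 within complex IV, 0.31 within complex I, 0.18 within complex V, -0.16 for complex III and 0.28 between complexes.

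Single genes stood nearer to or farther from the rest. The correlation of a member with the mean of the other members was above 0.8 for 24 of 52 genes, led by NDUFB1 (0.97), NDUFA9 (0.96) and COX6A1 (0.96). It was below 0 for 6, namely NDUFA4 (-0.59), ATP5E (-0.36), NDUFS1 (-0.27), ATP5O (-0.26), ATP5G2 (-0.18) and NDUFA4L2 (-0.054). NDUFA4, ATP5O and ATP5G2 are among the dimmest members, with means of 2.94, 3.41 and 3.83, while NDUFS1 and ATP5E, with means of 7.28 and 8.13, are not. When high pig 1 was left out the correlation stayed below 0 for NDUFA4 (-0.42), NDUFS1 (-0.55) and ATP5E (-0.52) and was above 0 for ATP5O (0.20), ATP5G2 (0.037) and NDUFA4L2 (0.082). It was then below 0 for NDUFA1 (-0.14), NDUFB4 (-0.23), NDUFS5 (-0.10) and ATP5J (-0.23) as well, 7 genes in all, and above 0.8 for 14.

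Genes around the respiratory chain were read beside the members. Of 4 further subunits or bound proteins above the filter, 2 were lower in the high pigs, none was called and 1 had an unadjusted p under 0.05 (2.19% of all genes), with a median of -0.0028. Of the 4, 1 was lower without high pig 1 (median 0.13) and 0 had an unadjusted p under 0.05. HIGD1A, a small protein of complexes III and IV that low oxygen induces in human cells, lay at 6.83 to 8.45 (median 7.93) in high and 7.97 to 8.77 (median 8.34) in low pigs. Its difference of -0.53 ± 0.21 (unadjusted p = 0.0278, limma adjusted p = 0.999) was -0.35 without high pig 1. ATPIF1, the inhibitor of complex V, differed by 0.082 ± 0.14 and NDUFAB1, the acyl carrier protein bound to complex I, by 0.015 ± 0.15, or 0.14 and 0.12 without high pig 1. Of 17 assembly factors, 11 were lower (median -0.07), and none was called or had an unadjusted p under 0.05. Among them NDUFAF1, an assembly factor of complex I, lay at 5.93 to 6.60 (median 6.40) in high and 6.46 to 6.69 (median 6.60) in low pigs, a difference of -0.27 ± 0.13 (unadjusted p = 0.0551). TMEM126B, also of complex I assembly, differed by -0.22 ± 0.16 and ATPAF2 of complex V assembly by 0.17 ± 0.14. These 3 differences were -0.19, -0.17 and 0.14 without high pig 1, and 11 of the 17 were then lower (median -0.065).

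Of 16 regulators of mitochondrial genes, 6 were lower (median 0.03), none was called and 1 had an unadjusted p under 0.05 (2.19% of all genes). Of the 16, 6 were lower without high pig 1 (median 0.081) and 0 had an unadjusted p under 0.05. GABPB1, a subunit of the transcription factor GABP that binds promoters of many respiratory chain genes in human cells, lay at 5.52 to 6.95 (median 6.30) in high and 6.36 to 7.05 (median 6.76) in low pigs. Its difference was -0.47 ± 0.21 (unadjusted p = 0.0448, limma adjusted p = 0.999), or -0.29 without high pig 1. NRF1, another such factor, differed by 0.21 ± 0.14 and the coactivator PPARGC1B by -0.41 ± 0.38, or 0.17 and -0.089 without high pig 1. Of 14 genes of the citric acid cycle and pyruvate dehydrogenase, 11 were lower (median -0.09), and none was called or had an unadjusted p under 0.05. Citrate synthase, CS, lay at 9.16 to 10.94 (median 10.55) in high and 10.31 to 10.85 (median 10.75) in low pigs and differed by -0.32 ± 0.22, or -0.11 without high pig 1. DLAT, of pyruvate dehydrogenase, differed by -0.24 ± 0.15 and fumarase, FH, by -0.24 ± 0.17, or -0.25 and -0.13 without high pig 1. Of the 14, 7 were then lower (median 0.0019).

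Marker levels of cell types moved with the member score in some pigs and not in others. Enterocyte markers were lower in high pigs for 10 of 11 (median -0.45, none called), where 52.5% of all genes were lower. This count and median include high pig 1 and were not computed without it. The mean of the centred markers was -0.23 ± 0.95 in high and 0.23 ± 0.32 in low pigs (SD, n = 6 each). Their mean centred level was -1.84 in high pig 1, -0.56 to 0.86 in the other high pigs and -0.12 to 0.73 in low pigs. High pig 1 was lowest in both the enterocyte and the member score, whereas high pig 3, highest in enterocyte markers at 0.86, had a member score of -0.07, and low pig 2 had 0.15 and -0.19. Goblet cell markers, 5 of 7 above the filter and none called, were lowest in high pig 1 (-1.17) and low pig 2 (-0.89), the lowest pair in the member score as well, and ranged from -1.17 to 0.43 in males and from 0.07 to 0.39 in females. B cell markers, 5 of 8 above the filter, ran from -1.33 to 1.13 in high and from -3.59 to 0.98 in low pigs, with the lowest value in low pig 4, whose member score was 0.07. Their part in the members' values was not tested.

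**Figure D5:**
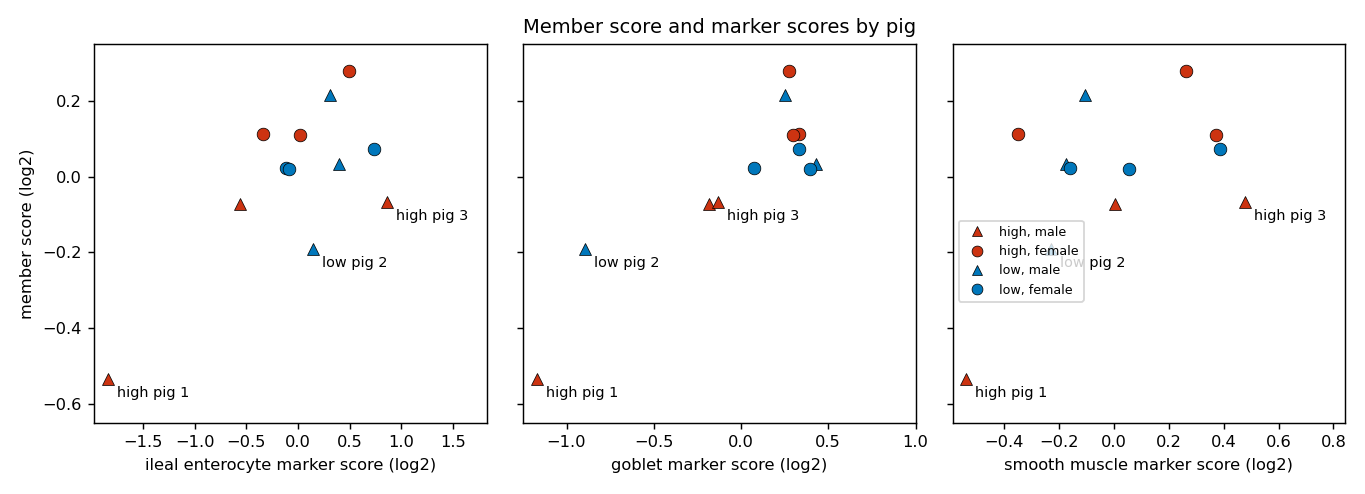
Member score of the 52 genes (vertical axis, log2) against the mean centred level of ileal enterocyte, goblet and smooth muscle markers (horizontal axes, log2) in each pig. High pig 1 is lowest on every axis, and low pig 2 is next lowest in the member score with a goblet score of -0.89 and an enterocyte score of 0.15.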

How the data were processed

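RNA of ileal mucosa from 12 pigs was measured on 1-colour Affymetrix arrays. The submitters' processing notes name GCOS 1.1.1; how background was corrected and arrays normalized is not given in the sources used here. On deposited values the scale is log2, as read from the values, which run from 0.30 to 14.24. No normalization was added. From 47845 probe sets, 123 controls and the 30% dimmest by mean were dropped, which left 33405. Symbols came from the platform annotation, with 1 symbol on 26426 probe sets; all 54 members matched the RefSeq gene table of Sscrofa11.1, used for names alone, and no coordinates are given because the files name no build.

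Each probe set was fitted with limma 3.58.1 in R 4.3.3 (lmFit, eBayes) on feed efficiency and sex, with p-values adjusted over all 33405 (threshold 0.05). The difference between the sexes is a contrast of 4 means, one per group and sex. The scripts were tested on simulated data. Shares of all genes are over 12164 genes other than microRNAs, each by its brightest probe set. Pigs carry separate identifiers, so replicates are animals, and their number limits the precision. The members and all gene lists were chosen with earlier results of these data known. Named genes are, per complex, the 5 of smallest unadjusted p by feed efficiency, 3 by sex and 1 for the difference between the sexes, members of the isoform and non-subunit lists or below the filter, and 3 of each other list. Others named were chosen after their values were seen. Alternatives were other filters, normalizations, weights, terms, probe set choices and pigs left out.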

Additional observations from a re-analysis of the deposited data

Results flagged for a closer look

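In 16 of 104 groups of 6 pigs tested, 1 pig lay farther from the others than Dixon's gap test allows at 95%. Chance gives about 5% of such groups where the groups are independent. The groups tested here share the same pigs, and many of the genes vary together. The 16 can therefore not be set against that 5%. Values are log2, each with the nearest other pig of the group. High pig 1 was the lowest for ATP5G3 at 7.85 (nearest 8.34), COX7C at 7.11 (nearest 7.88), NDUFC2 at 7.60 (nearest 8.41), SDHB at 8.10 (nearest 9.10) and CS at 9.16 (nearest 10.30). Low pig 2 was the lowest for ATP5SL at 7.56 (nearest 8.54), COX6B at 8.24 (nearest 8.86), NDUFS6 at 7.66 (nearest 8.58), NDUFS7 at 7.92 (nearest 8.65), UQCR10 at 8.68 (nearest 9.19) and CS at 10.31 (nearest 10.71). It was the highest of its group for NDUFS1 at 7.67 (nearest 7.33), as high pig 3 was at 7.84 (nearest 7.22). NDUFA4L2 was highest in high pig 2 at 5.13 (nearest 4.77). ATP5H, below the filter, was highest in low pig 6 at 1.79 (nearest 1.38). The score of complex V was highest in low pig 1 at 0.27 (nearest -0.0078).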

How the results depend on the processing

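No member was called under any alternative. Fits on the deposited values cannot show differences much smaller than the 95% interval of a member, and the 12 arrays are what limits it. No paired analysis was possible because the labels give no number that ties a high to a low pig. The planned search for promoter motifs was not run, and no promoter sequence was used here. With identifier range as a term, 1 member had an unadjusted p under 0.05 by feed efficiency (2.48% of all genes). For the difference between the sexes 1 did (2.07% of all genes). For the latter 1 also did with quantile normalization (1.92% of all genes) and 1 with a trended robust variance (1.81% of all genes). By sex that count was 8 with array weights, 6 in the range 301 to 310 and 2 without both high pig 1 and low pig 2, which were chosen after seeing their low values. Leaving out each pig gave 0 to 1 by feed efficiency, 6 to 21 by sex and 1 to 9 for the difference between the sexes, and 27 to 44 members lower in high feed efficiency, which was 9 in females alone. The median of complex III was -0.32 in males and 0.17 in females, and that of complex V -0.28 and 0.14. Of 1430 values of single genes under alternatives, 1368 kept their sign and 62 did not, in 28 of 57 results; the cause was not tested. In females alone the sign by feed efficiency turned for ATP5A1 0.13, ATP5B 0.083, ATP5E 0.056, ATP5F1 0.13, ATP5G3 0.012, COX5B 0.082, COX6A1 0.10, COX7A2 0.10, FH 0.050, NDUFB6 0.13, NDUFB8 0.14, NDUFC2 0.0060, NDUFS7 0.21, PPARGC1B 0.074, SDHA 0.044, SDHB 0.079, TMEM126B 0.090, UQCR10 0.12, UQCRB 0.22. In males alone it turned for ATP5J -0.091, ATP5O -0.029, NDUFAB1 -0.27. With the mean over probe sets it turned for ATP5E 0.039, ATP5J -0.0033, ATPAF2 -0.16, ATPIF1 -0.022, with array weights for ATP5F1 0.013, ATP5O -0.030, NDUFS7 0.070, with quantile normalization for ATP5O -0.0041, in the range 301 to 310 for NDUFAB1 -0.11, and without both lowest males for ATP5E 0.031, ATP5O -0.084, NDUFS1 0.030, UQCRB 0.019. Leaving out each pig turned the sign of genes whose values ranged as follows by feed efficiency: ATP5E -0.071 to 0.037, ATP5F1 -0.13 to 0.029, ATP5O -0.071 to 0.10, ATPIF1 -0.011 to 0.14, COX6B -0.21 to 0.016, COX7C -0.22 to 0.025, NDUFAB1 -0.032 to 0.12, NDUFS1 -0.16 to 0.0090, NDUFS7 -0.13 to 0.093, SDHB -0.26 to 0.027, UQCRB -0.12 to 0.052. By sex UQCRB ranged from -0.058 to 0.10. Values in single sexes, for genes that are no members and for single differences between the sexes were added after seeing the data.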
